A study of Mus musculus with 6 samples.

Results

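A set of 10 genes that T cells switch on within minutes of engagement of the antigen receptor were followed in regulatory T cells (Treg) with and without the methyl-DNA binding protein Mbd2. The list held the zinc finger factors Egr1, Egr2 and Egr3, the orphan nuclear receptors Nr4a1, Nr4a2 and Nr4a3, the nuclear protein gene Ier2, the dual-specificity phosphatases Dusp1 and Dusp2, and the surface receptor gene Cd69. Members were taken by name, as the probe sets to which the platform annotation gives a single symbol of the list, and 9 of the 10 genes were found, through 12 of 22626 probe sets (9 of 12393 named genes). Cd69 was not matched to a probe set and was not analysed here.

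The cells were CD4+CD25+ Treg, taken from Balb/c mice and isolated magnetically. The data comprise 3 arrays from wild-type animals and 3 from animals of genotype MBD2-/-, described as independent samples, and both groups shared the Balb/c background. The labels name no stimulation of the cells and give no age or sex, and the knockout is described without a tissue-specific promoter or Cre. The series title names Foxp3 demethylation and Treg function as its subject, and the comparison of the members asks whether the RNA of the early receptor response differed between the genotypes.

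These genes belong to the immediate-early class, whose transcription needs no new protein and is set off through MAP kinases, calcium and calcineurin, acting on SRF with ETS partners, on CREB and on NFAT and MEF2 factors. Egr and Nr4a factors carry the signal to later genes, while the Dusp phosphatases remove phosphate from MAP kinases and so limit it. In Treg, which meet self antigen continuously, Nr4a receptors are known to support Foxp3 expression, and Nr4a1 is widely used as a reporter of receptor signal strength. Egr2 and Egr3 are known as restraining factors in T cells.

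Short stretches of the members' promoters are shown to make the regulatory elements of this class visible. The windows ran from 250 bases before to 50 bases after a gene start in RefSeq on GRCm38.p6, and 6 members had a window that was searched, on both strands. Egr1, Egr3, Ier2 and Cd69 had no window and were not searched. Egr2 had 5 windows and each of the other searched members had 1. The CArG box, the SRF element, was found in 1 of 6 members and in 1.81% of 27025 genes with a window. The full CRE palindrome, TGACGTCA, was found in 1 of 6 members and 2.03% of genes, and its core TGACG, which the palindrome contains, in 6 of 6 members and 23.1% of genes. The Egr consensus GCGNGGGCG was found in 3 of 6 members and 6.27% of genes. A match is a run of letters and not a measured binding site. Each line gives 30 bases 5′ to 3′ on the strand of the gene, with the matched letters (or their complement on the other strand) in capitals.
Egr2, CArG box, chr10:67537787-67537816 (+): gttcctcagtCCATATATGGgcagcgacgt
Egr2, CArG box of another start, chr10:67537484-67537513 (+): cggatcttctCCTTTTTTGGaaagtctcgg
Dusp1, CRE, chr17:26508597-26508626 (-): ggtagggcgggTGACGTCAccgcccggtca
Nr4a3, CRE core, chr4:48045088-48045117 (+): atgtcgtcacatTGACGtctcgcattccag
Nr4a1, Egr consensus, chr15:101266776-101266805 (+): gcgtcagtggCGCCCCCGCccctctccatg
Nr4a2, Egr consensus, chr2:57124058-57124087 (-): cgcggggtgcGCGCGGGCGgcgacaatgaa
Dusp2, Egr consensus, chr2:127336051-127336080 (+): acgtgaagccGCGGGGGCGggcaccggcgc

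Values are log2 expression per probe set, so a difference of 1 is a doubling, and levels of different probe sets are not compared. Wild-type replicate 3 stood apart, with correlations across probe sets of 0.75 to 0.77 with every other array, against at least 0.956 among the rest. Genes above the median level were lower there than in the other wild-type arrays by a median of -1.33, against 0.02 for the others. Each member is therefore given with all 6 arrays and with the 5 arrays left when this array is removed (2 wild-type and 3 knockout). Both Mbd2 probe sets were lower in every knockout array than in every wild-type array. Of 9 Treg markers, 8 passed the filter on low values (mean log2 above 5.18), and none was under that level on all arrays. Their mean level was 8.52 to 9.82 in wild type and 8.44 to 9.25 in knockout. Knockout arrays also held more of the markers of other cells: the mean level of 15 neutrophil and granulocyte markers was 5.48 to 6.12 in wild type and 8.79 to 9.20 in knockout, and that of 14 monocyte, macrophage and dendritic cell markers 6.04 to 6.32 and 7.82 to 9.01. For 8 B cell markers it was 6.18 to 7.84 and 8.79 to 9.75, and for 10 CD8 T cell and NK cell markers 6.02 to 6.77 and 6.86 to 7.86. With 5 arrays limma called 9, 4, 1 and 1 genes of these lists higher in knockout and 1 Treg marker, Nrp1, lower. With 6 arrays it called 5, 2, 0 and 0 higher and 0 Treg markers lower. Of all genes tested it called 1.58% with 5 arrays and 0.122% with 6. For the CD8 T cell and NK cell list, groups did not overlap for 3 of 10 genes with 5 arrays, against 49.6% of all genes. The B cell gene Cr2 was under the filter level on all arrays. In such bulk samples fewer cells of a type and less RNA per cell cannot be told apart.

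**Figure D1:**
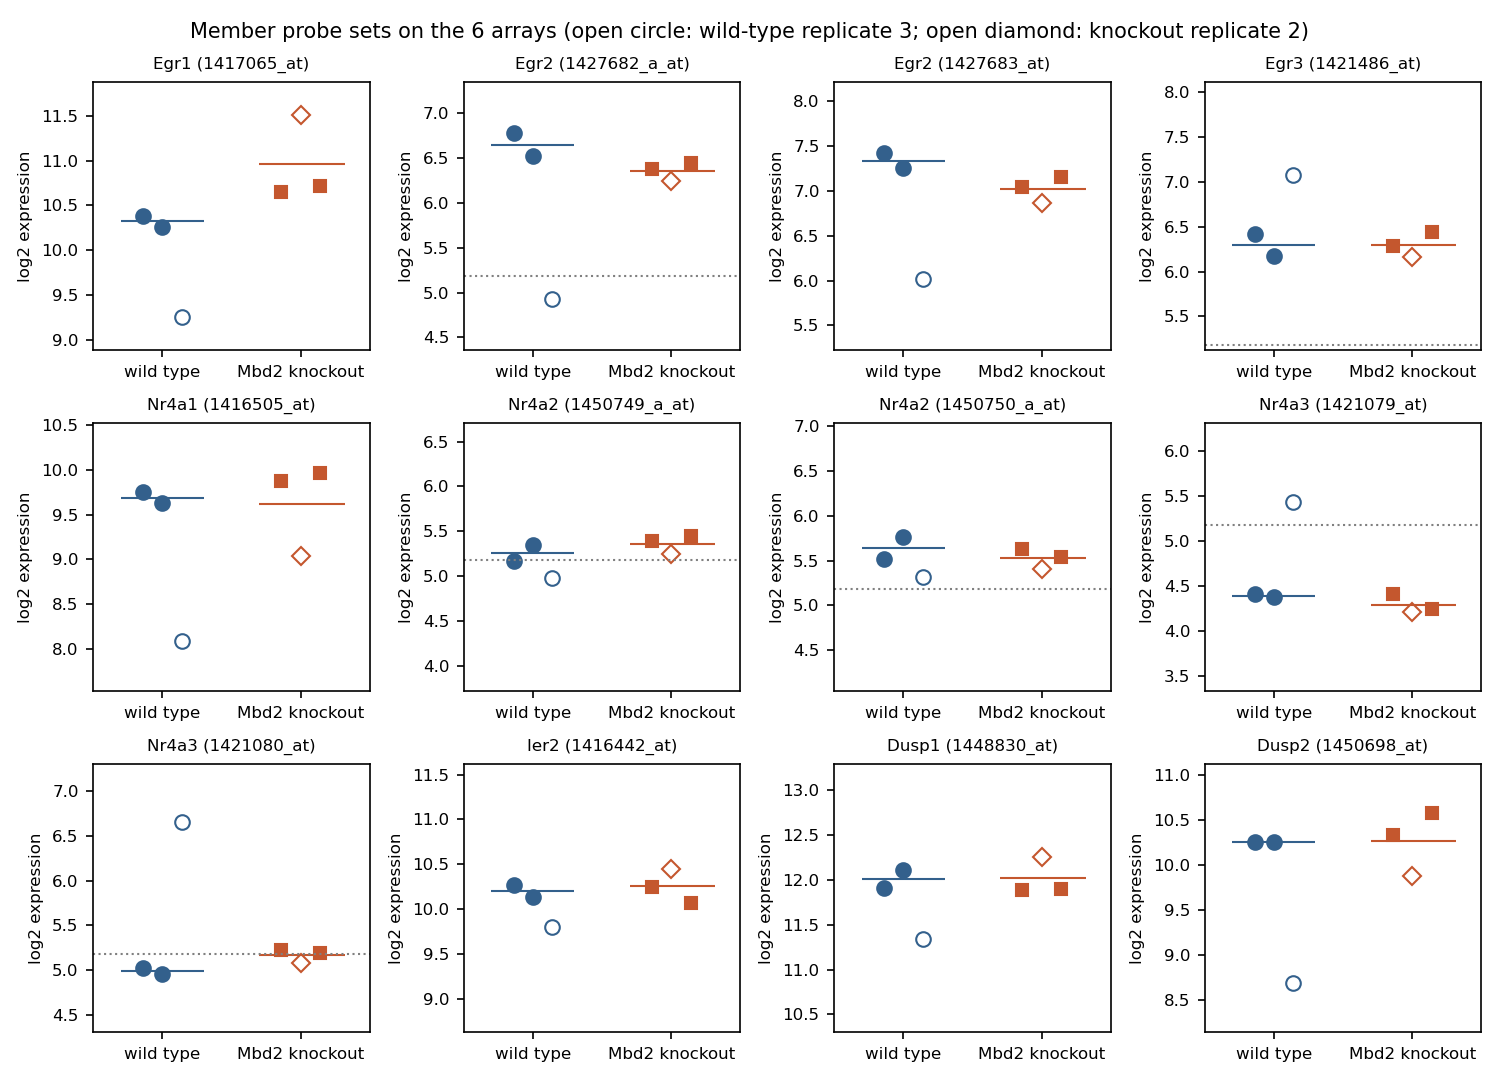
log2 expression of the 12 member probe sets on each array, with wild-type arrays as circles and knockout arrays as squares or, for replicate 2, a diamond; each panel spans 3 log2 units, lines are the mean of wild-type replicates 1 and 2 and of the 3 knockout arrays, and the dotted line is the filter level of 5.18. Egr1 is higher in all knockout arrays, and the open circle of wild-type replicate 3 lies apart in most panels.

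Egr1, the founding immediate-early factor of its family, had the largest difference of the members with 6 arrays and with 5. Without knockout replicate 2 alone, Nr4a1 (0.76) and Dusp2 (0.72) were above it (0.717). Its probe set (1417065_at) read 10.39, 10.26 and 9.26 on the wild-type arrays, given here and throughout in the order of replicates 1, 2 and 3, and 10.65, 11.51 and 10.72 on the knockout arrays. Every knockout array was above every wild-type array, and knockout replicate 2 was the highest. Group means were 9.97 ± 0.62 and 10.96 ± 0.48 (SD, n = 3 each), a log2 difference of 0.99 (SE 0.40, 95% interval 0.02 to 1.96), or 1.99-fold. With limma and Benjamini-Hochberg adjustment over all probe sets tested it did not pass the threshold of 0.05 (adjusted p = 0.829, unadjusted p = 0.0464). Without wild-type replicate 3 the difference was 0.64 (SE 0.27, limma adjusted p = 0.242), or 1.55-fold. Without knockout replicate 2 as well it was 0.36 (SE 0.08), or 1.28-fold, and passed (limma adjusted p = 0.0283), in a 4-array fit that called 20.1% of all genes. Knockout replicate 2 lay 0.82 above the mean of the other knockout arrays, so the size, though not the direction, rested in part on that array.

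Egr2, which restrains T cell activation, was lower in knockout than in wild-type replicates 1 and 2 on both of its probe sets. The brighter one (1427683_at) read 7.42, 7.26 and 6.02 in wild type and 7.04, 6.86 and 7.15 in knockout. The other (1427682_a_at) read 6.78, 6.52 and 4.93 and then 6.38, 6.25 and 6.45. All knockout arrays thus lay between wild-type replicate 3 and the other wild-type arrays. With 6 arrays the difference of the brighter probe set was 0.12 (SE 0.40), and without wild-type replicate 3 it turned to -0.32 (SE 0.12, 95% interval -0.62 to -0.02). That is 1.25-fold lower, with a limma unadjusted p of 0.0422 and an adjusted p of 0.215, which did not pass. The second probe set gave -0.29 (limma adjusted p = 0.241), and it measures the same transcript, so it is no separate result.

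Egr3, a close relative of Egr2, read 6.42, 6.17 and 7.07 in wild type and 6.28, 6.17 and 6.44 in knockout (1421486_at). Wild-type replicate 3 was the highest array here, the reverse of its place for Egr1 and Egr2. The log2 difference was -0.26 (SE 0.29) with 6 arrays and 0.00 without that array, with a 95% interval from -0.32 to 0.32 (limma adjusted p = 0.998). The interval reaches 1.25-fold in either direction. Without wild-type replicate 3, none of the Egr genes passed the threshold, and the differences between them were not tested.

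Nr4a1, the Nur77 receptor that tracks receptor signal strength, read 9.75, 9.63 and 8.09 in wild type and 9.87, 9.04 and 9.96 in knockout (1416505_at). The groups overlapped, with the lowest values in wild-type replicate 3 and knockout replicate 2. The log2 difference was 0.46 (SE 0.52, limma adjusted p = 0.829) with 6 arrays. It was -0.07 without wild-type replicate 3 (SE 0.28, 95% interval -0.76 to 0.63), and without knockout replicate 2 as well it was 0.22 (SE 0.08, limma adjusted p = 0.106). Knockout replicate 2 alone lay 0.87 below the mean of the other knockout arrays for Nr4a1, and above it for Egr1.

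Nr4a2, or Nurr1, was measured by probe sets close to the filter level that disagreed in sign. The brighter (1450750_a_at) read 5.51, 5.76 and 5.32 in wild type and 5.63, 5.40 and 5.54 in knockout, and the groups overlapped. Its difference was -0.01 with 6 arrays and -0.11 with 5 (SE 0.12, limma adjusted p = 0.63). The dimmer (1450749_a_at), which was under 5.18 on 2 arrays, was at 0.20 and 0.10.

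Nr4a3, or Nor1, was dim on both probe sets. The brighter (1421080_at) read 5.02, 4.96 and 6.66 in wild type and 5.23, 5.08 and 5.19 in knockout, with 3 arrays under 5.18. The high reading of wild-type replicate 3 carried its mean of 5.36 over the filter. The difference was -0.38 (SE 0.48) with 6 arrays and 0.18 (SE 0.10, limma adjusted p = 0.332) with 5. In the latter the groups did not overlap, but the wild-type mean of 4.99 was under the filter level, so no fold is given. The dimmer probe set (1421079_at) did not pass the filter, and in fits without it the difference was -0.45 with 6 arrays and -0.10 with 5. Only the reading of wild-type replicate 3, at 5.43, was above 5.18.

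**Figure D2:**
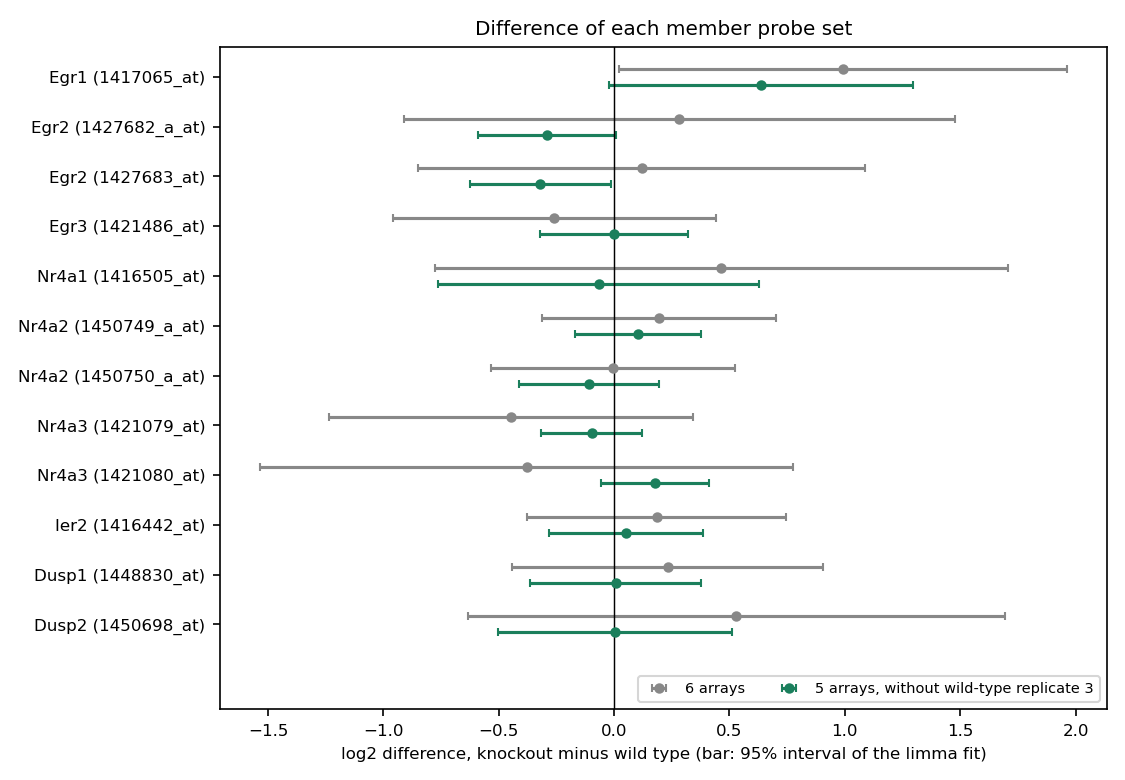
log2 difference between knockout and wild type of each member probe set, with its 95% interval from limma, for 6 arrays in grey and for the 5 arrays without wild-type replicate 3 in green. Intervals shrink without that array, and those of Egr3, Ier2, Dusp1 and Dusp2 then centre close to 0.

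Ier2, a small nuclear protein gene induced with the Egr factors, read 10.26, 10.14 and 9.80 in wild type and 10.24, 10.45 and 10.07 in knockout (1416442_at). The groups overlapped. The difference was 0.18 (SE 0.23) with 6 arrays and 0.05 (SE 0.14, 95% interval -0.28 to 0.38, limma adjusted p = 0.847) with 5.

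Dusp1, which inactivates JNK and p38 MAP kinases, read 11.91, 12.11 and 11.34 in wild type and 11.89, 12.26 and 11.90 in knockout (1448830_at). The knockout arrays fell on both sides of wild-type replicates 1 and 2. The difference was 0.23 (SE 0.28) with 6 arrays and 0.01 with 5, where the 95% interval ran from -0.36 to 0.38 (limma adjusted p = 0.981). Differences over about 1.3-fold in either direction lie outside that interval.

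Dusp2, the lymphocyte ERK phosphatase PAC1, read 10.26, 10.26 and 8.69 in wild type and 10.34, 9.88 and 10.58 in knockout (1450698_at). Knockout replicate 2 was again the lowest of its group, 0.58 below the mean of the others, as for Nr4a1. The difference was 0.53 (SE 0.48) with 6 arrays and 0.00 (SE 0.21, 95% interval -0.50 to 0.51, limma adjusted p = 0.992) with 5. The interval reaches 1.42-fold lower and 1.43-fold higher.

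Over all 9 measured members, limma called 0 genes with 6 arrays and 0 with 5, where it called 0.122% and 1.58% of 8190 genes. At an unadjusted p under 0.05 it gave 1 member with 6 arrays (Egr1, higher) and 1 with 5 (Egr2, lower), against 4.48% and 22.7% of genes. Groups did not overlap for 1 member with 6 arrays (Egr1) and for 3 with 5 (Egr1, Egr2 and Nr4a3), against 16.3% and 49.6% of genes. The median log2 difference of the members was 0.18 with 6 arrays and 0.00 with 5, beside 0.16 and -0.06 for all genes. With 5 arrays the median size of a difference, whatever its sign, was 0.07 for members and 0.17 for all genes. Without knockout replicate 2 as well, this order turned, to 0.20 for members and 0.15 for all genes. All 9 genes passed the filter, Nr4a3 only through wild-type replicate 3.

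**Figure D3:**
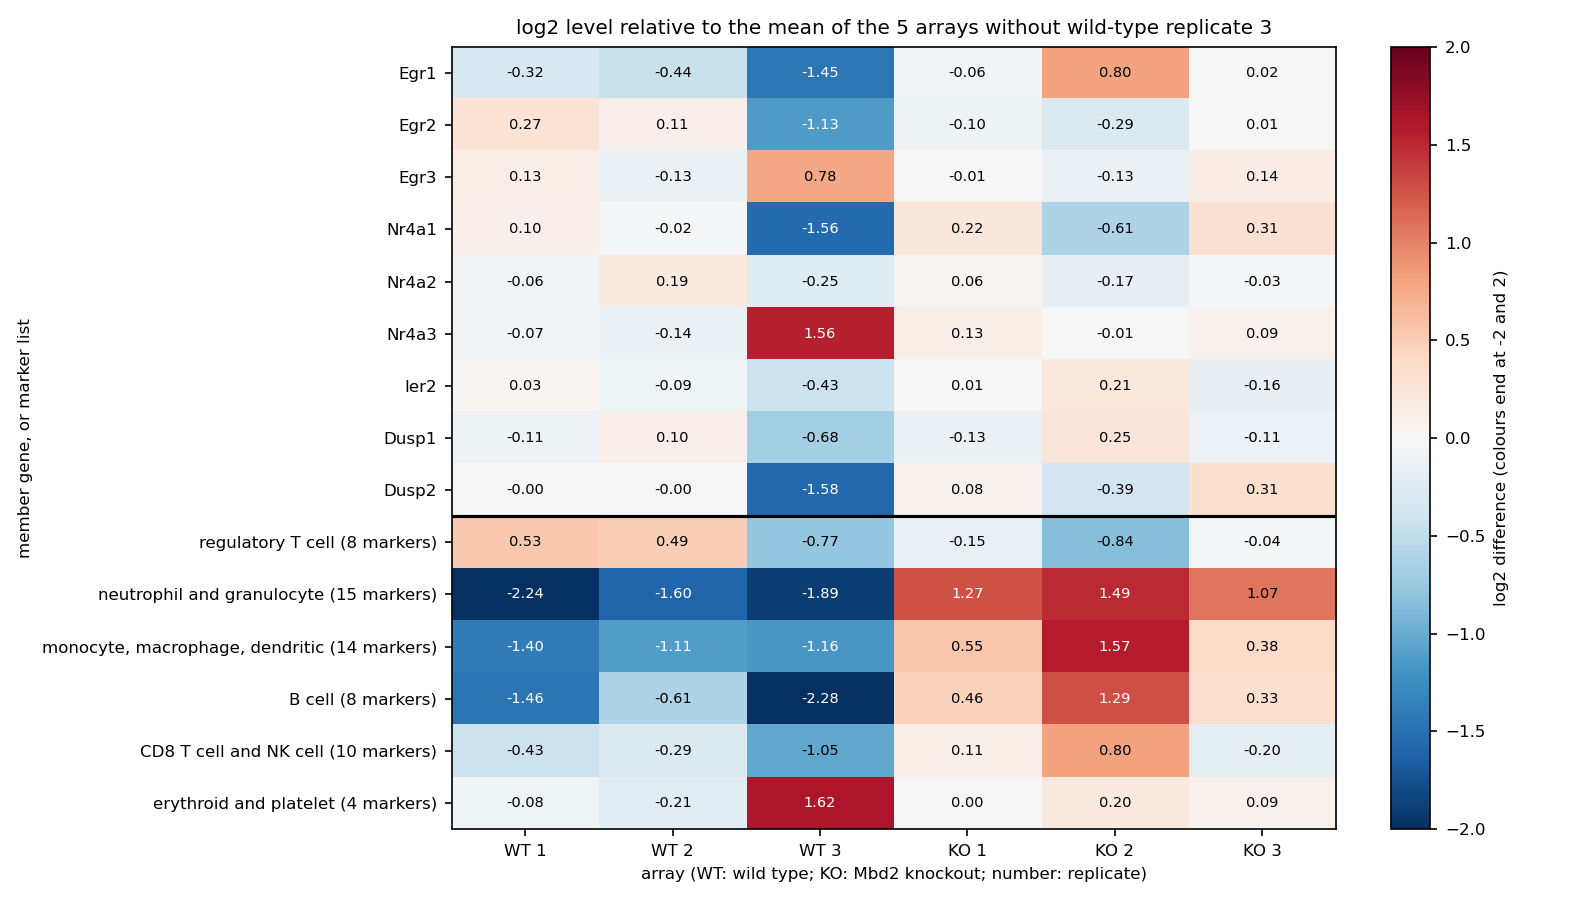
Level of each member gene (top) and mean level of each marker list (bottom) on every array, as the log2 difference from the mean of the 5 arrays without wild-type replicate 3. In knockout replicate 2 Egr1 stands at 0.80 and Nr4a1 at -0.61, and the monocyte, macrophage and dendritic markers reach 1.57 in that array.

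The members split within the knockout group. In knockout replicate 2, Egr1, Dusp1 and Ier2 lay 0.82, 0.37 and 0.29 above the mean of knockout replicates 1 and 3. In the same array Nr4a1 and Dusp2 lay 0.87 and 0.58 below it, as did Egr2 by 0.24, Egr3 by 0.20, Nr4a2 by 0.19 and Nr4a3 by 0.12. Over all genes the median size of this deviation was 0.22, and 15.6% exceeded 0.5. The marker lists set the same array apart. Relative to the mean of the 5 arrays, its Treg markers stood at -0.84, against -0.15 and -0.04 in knockout replicates 1 and 3. Its monocyte, macrophage and dendritic markers stood at 1.57 against 0.55 and 0.38, and its B cell markers at 1.29 against 0.46 and 0.33. The neutrophil and granulocyte markers differed less, at 1.49 against 1.27 and 1.07. The part of other cell types in the differences of the members was not tested.

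Wild-type replicate 3 moved the members in opposite directions. It lay below the mean of the other wild-type arrays for Nr4a1 (-1.60), Dusp2 (-1.57), Egr2 (-1.32), Egr1 (-1.07), Dusp1 (-0.67), Ier2 (-0.40) and Nr4a2 (-0.32), and above it for Egr3 (0.78) and Nr4a3 (1.67). Of all tested genes above the median level, 94.6% were lower there, with a median of -1.33. Of the rest, 49.5% were lower, with a median of 0.02. Replicates 1 and 2 of the wild type differed from each other by 0.25 or less for every member gene. The erythroid and platelet list, of which 4 of 10 markers were measured and Pf4 and Ppbp were under the filter level on all arrays, was at 1.62 in wild-type replicate 3 and between -0.21 and 0.20 elsewhere. Hba-a1, Gp9 and Slc4a1 passed the filter only through that array, so the high value of the list there was in part fixed by the filter. Its part in the levels of the members on that array was not tested.

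The wider pathway was described with 5 lists, which held 101 distinct tested genes. With 6 arrays limma called 0 of them, against 0.122% of all genes, and gave 9 at an unadjusted p under 0.05, against 4.48%. With 5 arrays it called 4, all lower in knockout, against 1.58% of all genes, and gave 41 at an unadjusted p under 0.05, against 22.7%. Of all 8190 genes, 5269 were higher in knockout with 6 arrays, and 4905 were lower with 5. Klf2, Srf, Cd5 and Tnfrsf9 were each in more than a single list.

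Other immediate-early genes had a median of 0.23 with 6 arrays and -0.06 with 5, over 30 tested genes of which 0 were called in either fit. With 6 arrays the groups did not overlap for 8 genes, each of them higher in knockout, against 16.3% of all genes. With 5 arrays they did not overlap for 8 that were higher and 10 that were lower, against 49.6% of all genes. Fos, the AP-1 subunit, read 11.24, 11.62 and 10.53 in wild type and 12.10, 13.11 and 12.07 in knockout. The differences were 1.30 with 6 arrays and 0.998 with 5 (limma adjusted p = 0.829 and 0.179). Fosb, its relative, was at 1.80 and 1.31 and Ier3, an early gene of stress and survival, at 1.36 and 1.56 (limma adjusted p = 0.136 and 0.115 with 5 arrays). Klf4, a zinc finger factor abundant in myeloid cells, was at 0.88 and 0.67. These 4 genes, like Egr1, were highest in knockout replicate 2. The marker lists of neutrophils, of monocytes, macrophages and dendritic cells, of B cells, and of CD8 T and NK cells were also highest there. Their part in these differences was not tested. Junb and Btg2, an AP-1 subunit and an antiproliferative gene, were at -0.56 and -0.87 with 5 arrays (limma adjusted p = 0.118 and 0.082) and at -0.35 and -0.40 with 6. Zfp36l1, which encodes an mRNA decay factor, was at -0.51 with 5 arrays (limma adjusted p = 0.0576) and at -0.13 with 6.

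Of 7 tested MAP kinase phosphatases other than the members, limma called 0 with 6 arrays and 1 with 5. The shares of all genes were 0.122% and 1.58%. Dusp7, a cytoplasmic ERK phosphatase, read 7.31, 7.45 and 6.86 in wild type and 6.73, 6.63 and 6.67 in knockout. No array of one group reached the other. It fell by 0.70 on the log2 scale without wild-type replicate 3 (SE 0.10, limma adjusted p = 0.0378), or 1.63-fold, and was at -0.53 with 6 arrays (limma adjusted p = 0.829). Dusp6, an ERK phosphatase induced by ERK itself, was at 0.46 with 5 arrays (limma adjusted p = 0.0758) and at 1.06 with 6, with no overlap in either fit. Dusp22, a phosphatase that restrains the kinase Lck, was at 0.45 with 5 arrays (limma adjusted p = 0.168) and 0.84 with 6. With 5 arrays Dusp10 and Dusp14 were at -0.22 and -0.29 (0.51 and -0.62 with 6 arrays).

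Signalling genes upstream of the members, from the receptor to SRF, ETS and NFAT factors, had a median of -0.31 with 5 arrays and 0.08 with 6. Without wild-type replicate 3, 26 of 32 genes were lower in knockout and limma called 0. At an unadjusted p under 0.05 it gave 7, against 22.7% of all genes. The adaptor gene Lcp2, which encodes SLP-76, was at -0.67 (limma adjusted p = 0.14), and at -0.30 with 6 arrays. The co-receptor Cd4 was at -0.45, the receptor chain Cd3g at -0.79, the Ras exchange factor Rasgrp1 at -0.40 and the calcium-driven factor Nfatc3 at -0.45, while with 6 arrays these genes were at 0.03, -0.48, -0.49 and 0.08. Ppp3ca, a calcineurin chain, was at 0.86 with 6 arrays (limma adjusted p = 0.829) and at 0.12 with 5. The furthest above 0 in both fits was Mef2c, a MEF2 factor also strong in B and myeloid cells, at 1.46 with 6 arrays and 1.31 with 5 (limma adjusted p = 0.636 and 0.134). Treg markers had a median of -0.76 with 5 arrays, but Cd3d, Cd3e, Cd3g and Cd4 are in both lists. The part of Treg content in these differences was not tested.

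The co-repressors and described targets of Egr and Nr4a factors had medians of -0.11 with 6 arrays and -0.49 with 5, with 17 of 20 genes lower in the latter and 0 called in either fit. With 5 arrays 11 of the 20 had an unadjusted p under 0.05, against 22.7% of all genes, and with 6 arrays 3, against 4.48%. Lag3, an inhibitory receptor, and Crtam, an activation receptor, were on the high side at 0.76 and 0.77 with 5 arrays (limma adjusted p = 0.0633 and 0.0518) and at 0.75 and 0.73 with 6. Ikzf4, the Treg factor Eos, was at -1.29 with 5 arrays (limma adjusted p = 0.136), the furthest of the list from 0 in that fit, and at -1.06 with 6. Ctla4, an inhibitory receptor of Treg, was at -1.19 and Ndfip1, an adaptor of Itch ubiquitin ligase, at -0.48 (limma adjusted p = 0.103 and 0.0615), but at -0.64 and 0.32 with 6 arrays. Id2, an inhibitor of E proteins, was at 0.66 with 6 arrays and 0.23 with 5, and its groups overlapped. Foxp3 and Ctla4 are also in the list of Treg markers, which had a median of -0.76 with 5 arrays. The part of Treg content in the differences of this list was not tested.

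In the list of activation surface proteins and egress genes, chosen as company for Cd69, 16 of 16 genes were lower in knockout with 5 arrays and 13 of 16 with 6. The medians were -0.69 and -0.21. Limma called 3 of them lower with 5 arrays and 0 with 6, against 1.58% and 0.122% of all genes. With 6 arrays 0 had an unadjusted p under 0.05, against 4.48% of all genes. Cd83, a surface protein of activated lymphocytes and dendritic cells, read 8.62, 8.64 and 6.25 in wild type and 7.49, 7.68 and 7.57 in knockout, and fell by 1.05 with 5 arrays (limma adjusted p = 0.0142). Icos, the inducible costimulator, fell by 0.96 (limma adjusted p = 0.028) and Itgae, the CD103 integrin chain, by 0.74 (limma adjusted p = 0.0321). In wild-type replicate 3 these 3 genes were below every knockout array, and with 6 arrays they were at -0.26, -0.26 and -0.07. The TNF receptor family genes Tnfrsf4 (OX40), Tnfrsf18 (GITR) and Tnfrsf9 (4-1BB) were at -0.95, -0.93 and -0.54 with 5 arrays (limma adjusted p = 0.107, 0.114 and 0.375), and at -0.65, -0.45 and -0.43 with 6. Il2ra, which encodes the CD25 protein used for the separation, was at -0.73, and S1pr4, a sphingosine phosphate receptor, at -0.55 (limma adjusted p = 0.31 and 0.0675), and with 6 arrays these were at -0.46 and -0.06. Of the Treg markers, which include Il2ra, 8 of 8 were lower in knockout with 5 arrays, and their part in these differences was not tested.

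**Figure D4:**
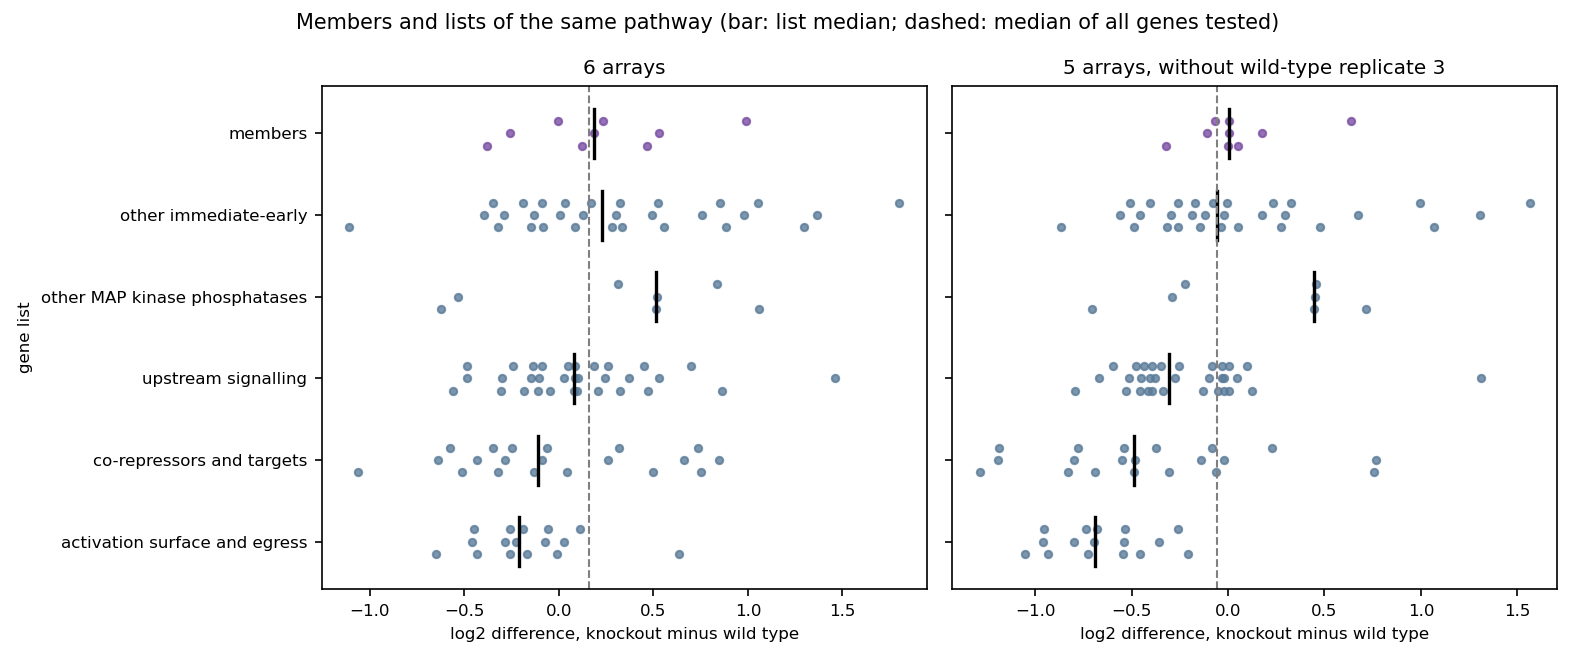
log2 difference between knockout and wild type of the 9 members and of the tested genes of 5 pathway lists, each point a gene, with 6 arrays (left) and without wild-type replicate 3 (right). On the right the member median sits at 0.00 and that of the activation surface and egress list at -0.69.

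The genes most like the members over the arrays were sought among 709 genes that spanned at least 1 log2 unit over the 5 arrays without wild-type replicate 3. The profile compared was the mean of the 9 members, each centred, and it ran only from -0.05 to 0.06 over these arrays. Klhdc2 had the highest Pearson r, at 0.97 over 5 arrays and 0.98 over 6, and read 7.26, 7.04 and 4.54 in wild type and 7.84, 7.17 and 8.33 in knockout. It was followed by 1700097N02Rik (0.96 and 0.86), Itm2a (0.92 and 0.89), Ecm1 (0.92 and 0.80) and Gpr83, a Treg-associated receptor gene (0.91 and 0.69). In each of the 5 genes knockout replicate 2 was the lowest of the knockout arrays. The profile itself was lowest there, at -0.04 against 0.02 and 0.06 in knockout replicates 1 and 3. Choosing genes by r with that profile favours this order, so it is no separate result. Of the members that make up the profile, Nr4a1, Dusp2, Egr2, Egr3, Nr4a2 and Nr4a3 were also lowest in knockout replicate 2. Egr1, Dusp1 and Ier2 were highest there. The arrays are shared by all genes compared, and with so few of them these values only describe the pattern.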

How the data were processed

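The authors' deposited table holds log2 expression per probe set for 6 arrays, computed with RMA per the submitters' processing notes. The RMA software, and whether all arrays were normalized in a single run, are not stated in these sources. Of 22690 probe sets, 64 controls were dropped. Symbols from the platform annotation were updated by gene ID through RefSeq (GRCm38.p6). A single symbol stood with 20380 probe sets, several with 691 and none with 1555. The members and gene lists were chosen with earlier results of these data known.

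Probe sets in the lowest 40% by mean were filtered out, which left 13575 for limma 3.58.1 (R 4.3.3; lmFit and eBayes without trend). Its p-values were adjusted by Benjamini-Hochberg over all of these, with a threshold of 0.05. Where a gene had several probe sets, the brightest stood for it. The 5-array fit used the same probe sets. The fit was tested on simulated data.

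All members were named. From each pathway list the text names the genes called in either fit and the 4 with the smallest p in each, and the likeness rule takes the 5 highest correlations. The number of arrays limits the precision, since intensities give no depth. The alternatives were other filters, variance models, array weights, normalizations, thresholds, probe set means, a replicate block and arrays left out. Scaling the 5 arrays again was chosen after seeing the data. Figures were drawn with matplotlib 3.10.9.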

Additional observations from a re-analysis of the deposited data

How the results depend on the processing

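The count of 0 called members held with 6 arrays under no filter, the stricter filter, the trended robust variance, array weights, both normalizations, the replicate block, probe set means, an adjusted p under 0.1, and each array left out. It was 1 (Egr1) without wild-type replicate 3 and knockout replicate 2 together, and 1 (Egr1) at an unadjusted p under 0.05 with a 1.5-fold difference. With array weights Egr1 came close to the threshold, at 0.44 (limma adjusted p = 0.0526), in a fit that called 2323 probe sets. Egr1 stayed higher in knockout in every setting, from 0.36 to 1.20. The median of members ranged from 0.00 to 0.30 with single arrays left out.

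Probe sets called numbered 14 with 6 arrays, 8 without the filter, 2323 with array weights, 524 by the unadjusted rule, 0 to 190 with single arrays left out (190 when wild-type replicate 3 was left out, 3 for knockout replicate 3, and 0 for knockout replicate 1 or 2), and 2537 without both arrays. After scaling 5 arrays again they numbered 183 (quantile) and 225 (median). The titles do not say whether equal replicate numbers mark paired arrays. Correlations of deviations between arrays of the same number were 0.16, -0.12 and -0.14. With 3 arrays a group and wild-type replicate 3 apart from the rest, these values cannot decide it. With the replicate block 10 probe sets were called.

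Signs turned as follows; the causes were not tested. With array weights Egr2 was at -0.20, Egr3 at 0.12, Nr4a3 at 0.24, Dusp1 at -0.18, Dusp10 at -0.19, Cd4 at -0.28, Nfatc3 at -0.34, Ppp3ca at -0.0289 and Ndfip1 at -0.46. Quantile normalization of 6 arrays gave 0.13 for Nr4a2, -0.16 for Ier2, -0.0006 for Dusp1, -0.26 for Cd4, -0.0319 for Nfatc3 and -0.071 for Ndfip1. Nr4a2 was at 0.0483 after median centring and 0.10 with probe set means, which put Cd4 at -0.43. Without both arrays, Egr2 was at -0.24, Egr3 at 0.0658, Nr4a3 at 0.22, Ier2 at -0.0453, Dusp1 at -0.12, Dusp10 at -0.165, Cd4 at -0.35, Nfatc3 at -0.37, Ppp3ca at -0.0242, Ndfip1 at -0.48 and Id2 at -0.044. With 5 arrays and quantile normalization, Egr2 was at -0.26, Egr3 at 0.0293, Nr4a1 at -0.0446, Nr4a3 at 0.14, Dusp1 at -0.0183, Dusp10 at -0.165, Cd4 at -0.41, Nfatc3 at -0.39 and Ndfip1 at -0.49. With 5 arrays and median centring, Egr2 was at -0.33, Nr4a1 at -0.0806, Nr4a3 at 0.16, Dusp1 at -0.0064, Dusp2 at -0.0094, Dusp10 at -0.24, Cd4 at -0.47, Nfatc3 at -0.47 and Ndfip1 at -0.50. With single arrays left out, Egr2 ran from -0.32 to 0.38, Egr3 from -0.45 to 0.0004, Nr4a1 from -0.0671 to 0.76, Nr4a2 from -0.11 to 0.11, Nr4a3 from -0.67 to 0.18, Cd83 from -1.05 to 0.14, Icos from -0.96 to 0.13, Itgae from -0.74 to 0.28, Zfp36l1 from -0.51 to 0.0699, Dusp10 from -0.22 to 0.89, Cd4 from -0.45 to 0.31, Nfatc3 from -0.45 to 0.36, Ndfip1 from -0.48 to 0.73 and S1pr4 from -0.55 to 0.20.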
